A study of Mus musculus with 7 samples.

Results

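Transcripts of 48 genes that act in G2 and mitosis were followed in type 2 innate lymphoid cells (ILC2s) of mouse hearts. The genes came from a list of named mitosis and G2/M genes and were found by symbol in the deposited count table, which holds 55335 gene identifiers. All 48 were present, and all 48 were among the 17015 genes that passed the filter on low counts and were tested. The filter looked at counts only, and every one of the 48 had more than 3 counts in each of the 4 allograft libraries.

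The series compared ILC2s of naive hearts with ILC2s that had infiltrated a rejecting heart graft. It held 3 libraries of naive hearts, called naive 1 to 3 here, and 4 libraries of Balb/C hearts grafted into C57BL/6 recipients and taken on day 7, called allograft 1 to 4. Cells were sorted as CD45+, lineage-negative and ST2+, and each library pooled the cells of 4 to 7 hearts. The labels give no strain, sex or age for the naive mice, no sex or age for the grafted mice, and the same time of 7 days for both groups. No genotype is given for either group. The labels do not say whether the ILC2s in a graft came from the donor or the recipient. No library of a graft between mice of the same strain was analysed here, so transplantation and rejection cannot be told apart here. The replicates were pools, and p-values measure the spread between these libraries.

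A cell enters mitosis when the kinase Cdk1, bound to its cyclins, becomes active at the end of G2. Chromosomes are then condensed, attached by their kinetochores to the spindle, checked for attachment, pulled apart after the anaphase-promoting complex has marked securin and cyclin B for destruction, and enclosed in separate cells by cytokinesis. Most of the genes are transcribed in waves that peak in G2 and mitosis, so their transcripts are low in resting cells and are widely used to gauge how many cells of a sample are dividing. Tissue ILC2s of an unchallenged adult mouse are known as slowly dividing resident cells that expand after signals such as interleukin 33.

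Total counts were 43591167 to 53044907 in the naive and 29107326 to 44023726 in the allograft libraries. A count of 0 allowed up to 3 counts, or 0.0566 to 0.0688 counts scaled to a library total of 1000000 (CPM) in the naive and 0.0681 to 0.103 CPM in the allograft libraries. These limits and the intervals below cover counting error only, since the amplified cDNA carried no molecular identifiers. Naive 2 stood apart from the other 6 libraries. Mitochondrial transcripts made up 26.5% of its counts, against 3.11% and 2.72% in naive 1 and 3 and 2.04% to 2.87% in the allografts. The 15 ILC2 markers summed to 1263 CPM in naive 2, against 12337 and 16784 CPM in naive 1 and 3 and 12187 to 12946 CPM in the allografts. Il1rl1, which encodes ST2, was at 6.79 CPM in naive 2, and Il13 was the one ILC2 marker at 0, in that library. A list of 10 kidney tubule genes, all of them detected there, summed to 10108 CPM in naive 2, against 73.0 to 281.8 CPM in the other 6 libraries. Markers of the labelled cell type were thus high in 6 libraries and low in naive 2, and results are given with and without it.

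The mitotic transcripts were high in 1 naive library, low in the other 2, and even among the 4 allografts. The 48 genes summed to 4444 CPM in naive 1, 468.3 CPM in naive 2 and 635.7 CPM in naive 3. They summed to 2662, 2809, 2792 and 2734 CPM in allograft 1 to 4, a mean of 2749 CPM ± 66.6 (SD, n = 4). The allografts lay between naive 1 and the other 2 naive libraries, so the groups overlapped. As a share of all counts, the genes held 0.444% in naive 1 (95% Wilson interval 0.443% to 0.446%), 0.0468% in naive 2 (0.0462% to 0.0475%) and 0.0636% in naive 3 (0.0628% to 0.0643%). Their share in the allografts was 0.275% ± 0.00666 (SD, n = 4). Scaled to counts of nuclear genes alone, naive 2 stood at 637.0 CPM beside 653.4 CPM in naive 3. In libraries of pooled cells, fewer dividing cells and less of these RNAs per cell cannot be told apart. Naive 2 was also low in ILC2 markers (1263 CPM, against 16784 CPM in naive 3). The mitotic sums were not scaled to these markers, and the part of other RNA in the low sum of naive 2 was not tested.

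**Figure D1:**
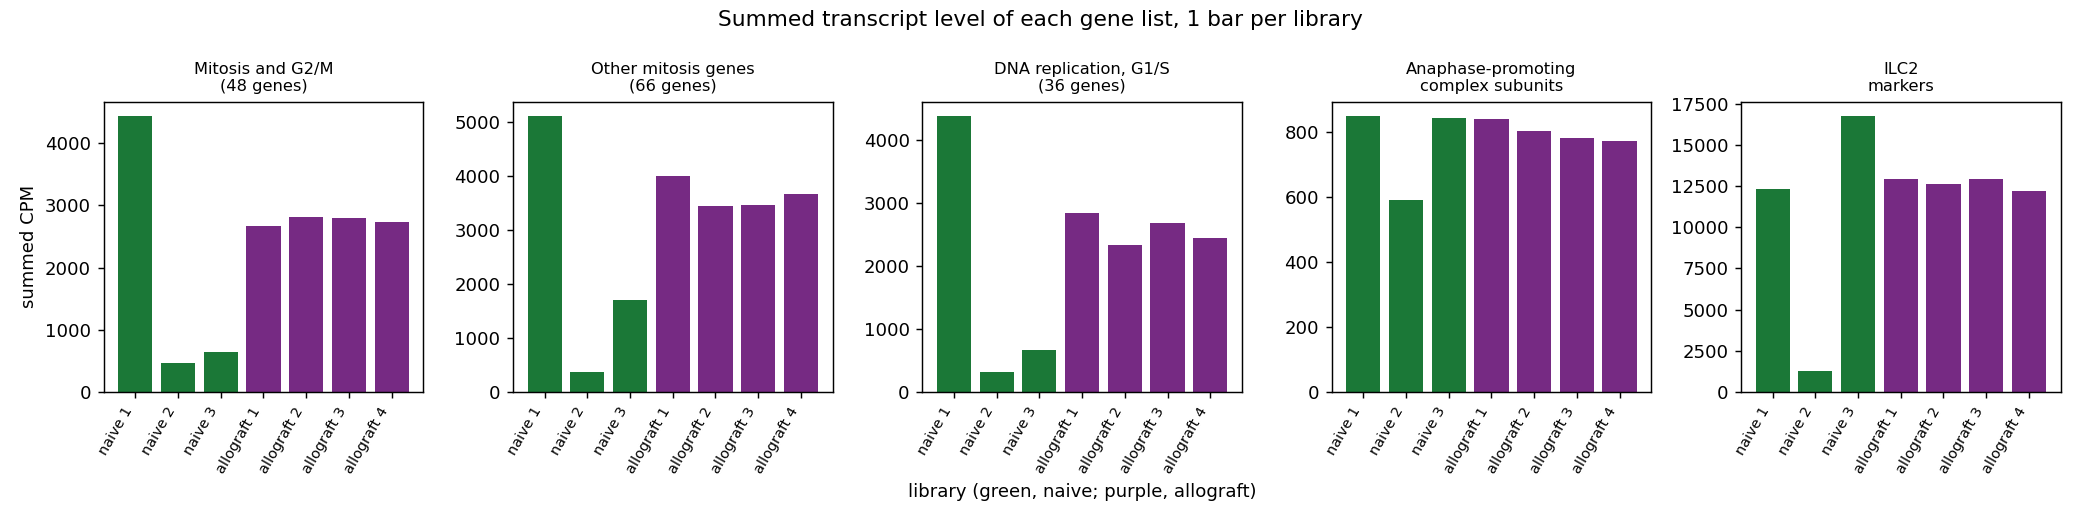
Summed CPM (vertical axes, linear from 0, a scale for each panel) of the 48 mitosis and G2/M genes, 3 lists of related genes and 15 ILC2 markers, with 1 bar for each of the 3 naive (green) and 4 allograft (purple) libraries. In the first panel naive 1 stands at 4444 CPM, naive 2 and 3 at 468.3 and 635.7 CPM, and the 4 allografts between 2662 and 2809 CPM.

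A pair of genes held much of what was left in naive 2 and 3. Pttg1, which encodes securin, and Bub3, a spindle checkpoint protein, together made up 67.4% of the mitotic counts of naive 2 and 38.4% of those of naive 3. They made up 4.53% in naive 1 and 6.65% to 8.19% in the allografts. Without the pair, the other genes summed to 4242, 152.6 and 391.8 CPM in naive 1 to 3 and to 2444 to 2594 CPM in the allografts. Pttg1 was the most abundant of the 48 in naive 2 and in naive 3. Smc4 held that place in naive 1, Birc5 in allograft 1 and Top2a in allograft 2 to 4. The pair was singled out after its values were seen.

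Many of the 48 genes had no count at all in naive 2 or naive 3. Of the 48, 19 were at 0 in naive 2, 28 in naive 3 and 14 in both, while none was at 0 in naive 1 or in any allograft. Among all tested genes, 10.0% were at 0 in naive 2, 28.7% in naive 3, 6.39% in both and 20.9% in naive 1. Genes at or above the lowest abundance of the 48 were seldom at 0. Of the 10592 tested genes whose allograft mean was at least that of the lowest of the 48 (4.44 CPM), 3.33% were at 0 in naive 2, 12.3% in naive 3 and 1.60% in both. No upper limit was set, so these genes are not matched to the 48 in abundance. In naive 3, 28 of the 48 were at 0, 20 had 100 counts or more, and 0 had between 1 and 99 counts, a range that held 7.06% of those 10592 genes. Naive 2 had 16 of the genes at 100 counts or more and 13 between 1 and 99. Of the 48 genes, 17 were higher in naive 2 than in naive 3, 17 were lower, and 14 were at 0 in both.

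**Figure D2:**
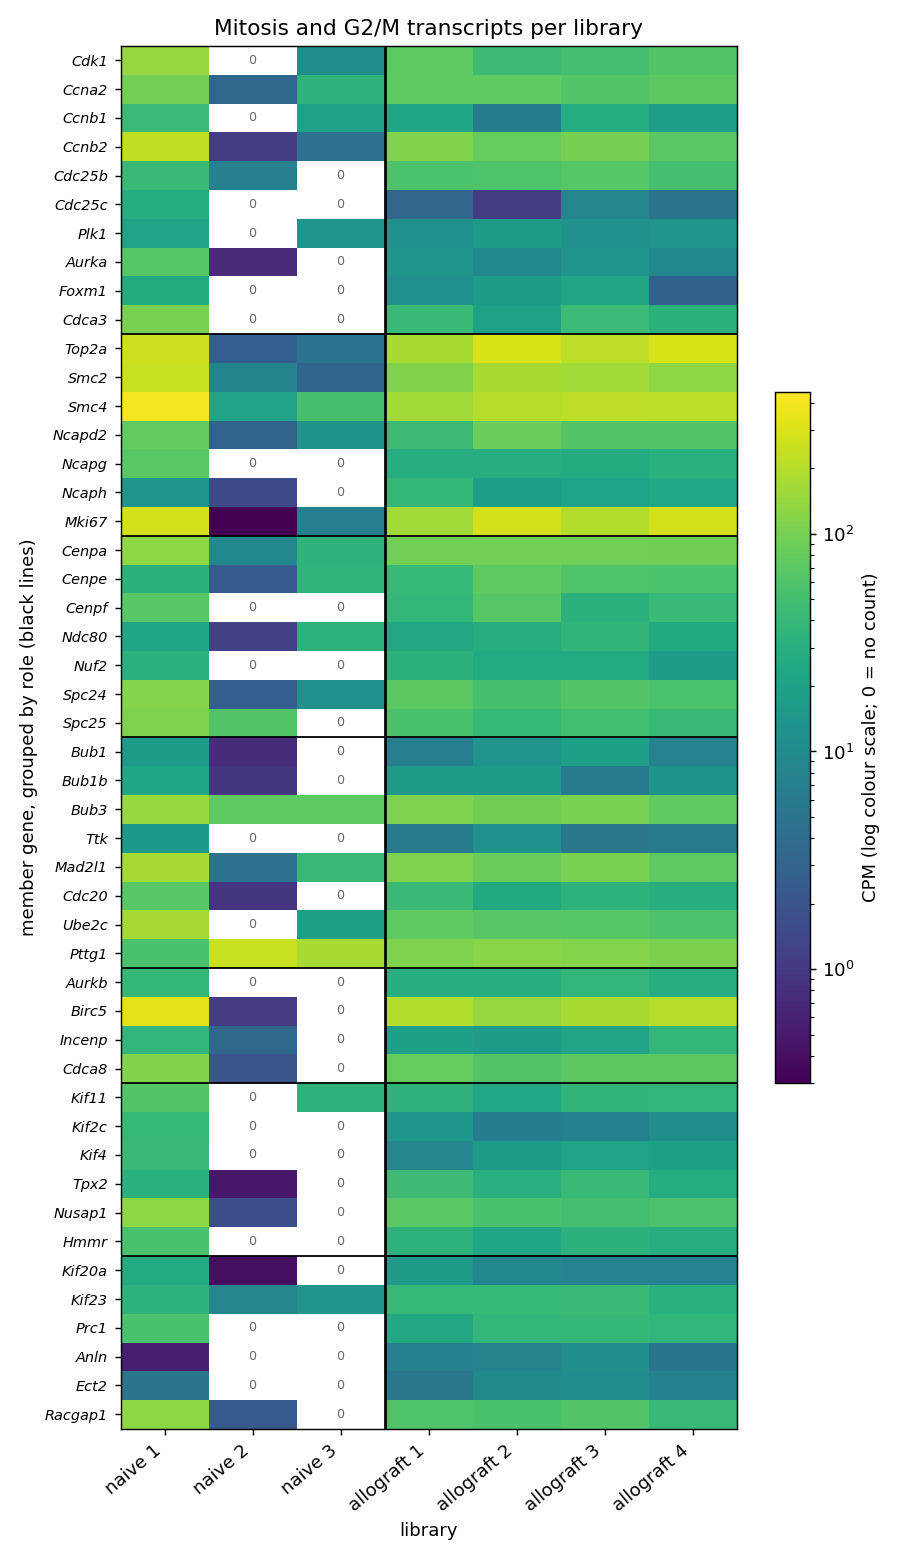
CPM of each of the 48 genes (vertical axis, in 7 role groups parted by black lines) in each of the 7 libraries (horizontal axis), on a log colour scale, with white cells for a count of 0. Naive 1 is filled throughout, naive 2 has 19 and naive 3 has 28 white cells, and the 4 allografts have none.

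The promoters of these genes share sequence features that are textbook parts of cell cycle control. The CCAAT box is bound by the factor NF-Y, and the cell cycle homology region (CHR) is bound by complexes that repress G2 and mitosis genes in resting cells and by activating complexes with B-Myb and FoxM1 in dividing ones. Windows of 250 bases before to 50 bases after the annotated start were read from RefSeq (GRCm38.p6) for 39 of the 48 genes. CCAAT was searched as the letters CCAAT and the CHR as TTTGAA, each on both strands. Matches can share letters, as a TTTGAA and a CCAAT match do in Cdca8 and a forward and a reverse CCAAT match do in Ube2c. CCAAT was found for 30 of the 39 (76.9%), against 41.1% of 27025 mouse genes with such a window. TTTGAA was found for 29 (74.4%), against 20.2% of all genes. Both were found for 26 (66.7%), against 7.97% of all genes, and neither for 6 (15.4%), against 47.7%. The 6 were Birc5, Mad2l1, Ncaph, Nuf2, Nusap1 and Pttg1. For Pttg1 the window lay inside the annotated span of the gene, so its lack of matches holds for that window only. Counted from the first start listed for each gene, the 36 TTTGAA matches began at a median of 2 bases after the start, and the 69 CCAAT matches at a median of 71 bases before it.

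To show how the matches are laid out, 6 promoters follow, each from 150 bases before to 30 bases from the start, with CCAAT (or ATTGG, its reverse complement) and TTTGAA (or TTCAAA) in capitals. They were chosen after the values were seen: Ccnb2, Cdk1, Top2a and Cdc20 as genes with both motifs that were near or at 0 CPM in naive 2 and 3 or in one of them, and Bub3 and Pttg1 as the pair with the highest CPM there. Their positions are chr9:70421525-70421704 (Ccnb2), chr10:69352883-69353062 (Cdk1), chr11:99024160-99024339 (Top2a), chr4:118437314-118437493 (Cdc20) and chr11:43425952-43426131 (Pttg1), all on the minus strand, and chr7:131560220-131560399 (Bub3) on the plus strand.
Ccnb2: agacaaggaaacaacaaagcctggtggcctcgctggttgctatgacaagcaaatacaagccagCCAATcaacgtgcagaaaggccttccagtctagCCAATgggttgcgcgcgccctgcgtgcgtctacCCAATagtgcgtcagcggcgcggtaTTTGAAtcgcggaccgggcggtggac
Cdk1: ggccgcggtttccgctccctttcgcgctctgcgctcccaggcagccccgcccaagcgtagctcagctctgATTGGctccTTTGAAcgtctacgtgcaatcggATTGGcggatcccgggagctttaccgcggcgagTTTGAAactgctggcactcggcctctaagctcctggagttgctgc
Top2a: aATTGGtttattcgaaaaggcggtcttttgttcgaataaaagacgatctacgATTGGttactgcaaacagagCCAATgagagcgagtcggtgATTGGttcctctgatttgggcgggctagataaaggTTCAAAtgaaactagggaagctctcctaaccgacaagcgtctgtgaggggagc
Cdc20: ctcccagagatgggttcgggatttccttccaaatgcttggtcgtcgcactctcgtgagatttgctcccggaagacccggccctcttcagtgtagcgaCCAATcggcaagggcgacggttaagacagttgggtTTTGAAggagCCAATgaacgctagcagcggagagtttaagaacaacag
Bub3: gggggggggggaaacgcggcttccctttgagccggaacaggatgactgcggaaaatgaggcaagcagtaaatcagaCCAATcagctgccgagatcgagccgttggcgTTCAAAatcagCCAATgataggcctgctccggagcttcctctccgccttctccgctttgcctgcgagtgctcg
Pttg1: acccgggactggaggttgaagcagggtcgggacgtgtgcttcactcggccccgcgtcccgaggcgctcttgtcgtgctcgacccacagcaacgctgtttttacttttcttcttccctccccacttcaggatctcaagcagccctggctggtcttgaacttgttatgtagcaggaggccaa
In these stretches Ccnb2 holds 3 CCAAT and 1 TTTGAA matches, Cdk1 2 and 2, Top2a 4 and 1, Cdc20 2 and 1, Bub3 2 and 1, and Pttg1 none of either. The Pttg1 stretch lies inside the annotated span of that gene, chr11:43420244-43427463. Its listed start is thus an internal one, and the bases before the outer end of the span were not searched. Bub3 and Cdc20 carried the same kinds of match. In naive 2 and 3, Cdc20 was at 0.923 and 0 CPM and Bub3 at 74.6 and 72.5 CPM. Any relation of the matches to these levels was not tested. A match is a run of letters and not a shown binding site.

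**Figure D3:**
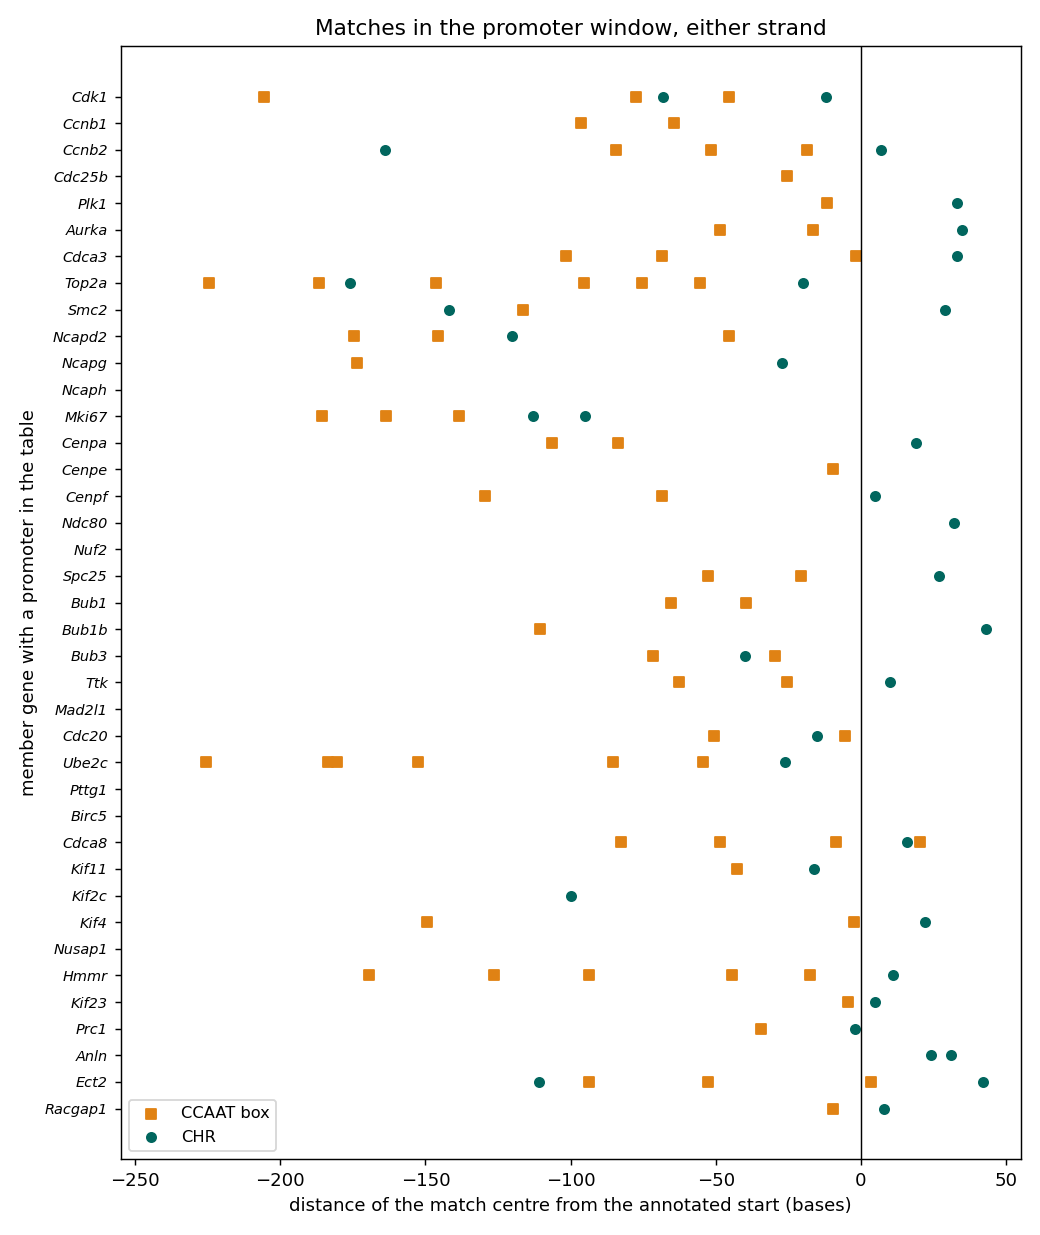
Position of each CCAAT (square) and TTTGAA (circle) match in the promoters of the 39 genes found in RefSeq, as the distance of its centre from the first annotated start in bases (horizontal axis; each gene is 1 line on the vertical axis). TTTGAA matches gather near the start, CCAAT matches lie mostly upstream of them, and 6 genes have neither.

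The allograft and naive groups were compared for each gene in 1 fit over all 17015 genes, with edgeR's quasi-likelihood test and Benjamini-Hochberg adjustment. None of the 48 genes passed an adjusted p of 0.05, against 0.0353% of all tested genes (6 genes). At an unadjusted p under 0.05 there was 1 gene of the 48, against 10.3% of all tested genes. The log2 fold change of allograft over naive was above 0 for 39 of the 48 and below 0 for 9, and above 0 for 49.4% of all tested genes. Its median was 0.61 over the 48 genes and -0.01 over all tested genes. Single values ran from -1.04 for Cdc25c to 5.42 for Anln, with standard errors of 0.32 to 2.26. DESeq2 called 1 of the 48 (Anln, log2 fold change 5.38, DESeq2 adjusted p = 0.0141), against 4.35% of the 28138 genes with any count. It returned a p for 27 of the 48 and none for 21, and the 28138 also include genes without a p. On log2 of FPKM plus 0.1, limma called none of the 48 (1.18% of all genes), and 12 had an unadjusted p under 0.05 (13.5% of all genes); with FPKM plus 1, limma called none (0.447%), and 9 had an unadjusted p under 0.05 (13.0%). The standard error was larger than the fold change for 38 of the 48 genes.

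The result turned on which naive library was left out. Without naive 1, 10 of the 48 genes rose in the allografts in edgeR's quasi-likelihood test with Benjamini-Hochberg adjustment, where 0.568% of all 18833 genes then tested were called and 0.510% were called higher, and none fell. At an unadjusted p under 0.05 there were 32 (17.6% of all genes). The median log2 fold change was then 4.66, and 47 of the 48 values were above 0, against 51.1% of all genes. The 10 were Ccnb2, Cdca3, Top2a, Ncapg, Cenpf, Nuf2, Aurkb, Kif4, Hmmr and Prc1. Without naive 2, the library poor in ILC2 markers, none passed in edgeR (against 3.10% of all genes), 1 had an unadjusted p under 0.05 (20.2% of all genes), and 24 of the 48 values were above 0, against 58.7% of all genes. The median was then -0.01. Without naive 3 none passed in edgeR (against 0.0372%), 2 had an unadjusted p under 0.05 (16.7%), 30 values were above 0 (51.7% of all genes) and the median was 0.11. Without allograft 1, 2, 3 or 4 in turn, edgeR called 0 of all genes tested, and none of the 48 had an unadjusted p under 0.05, beside 5.99%, 5.54%, 6.54% and 5.31% of all genes.

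**Figure D4:**
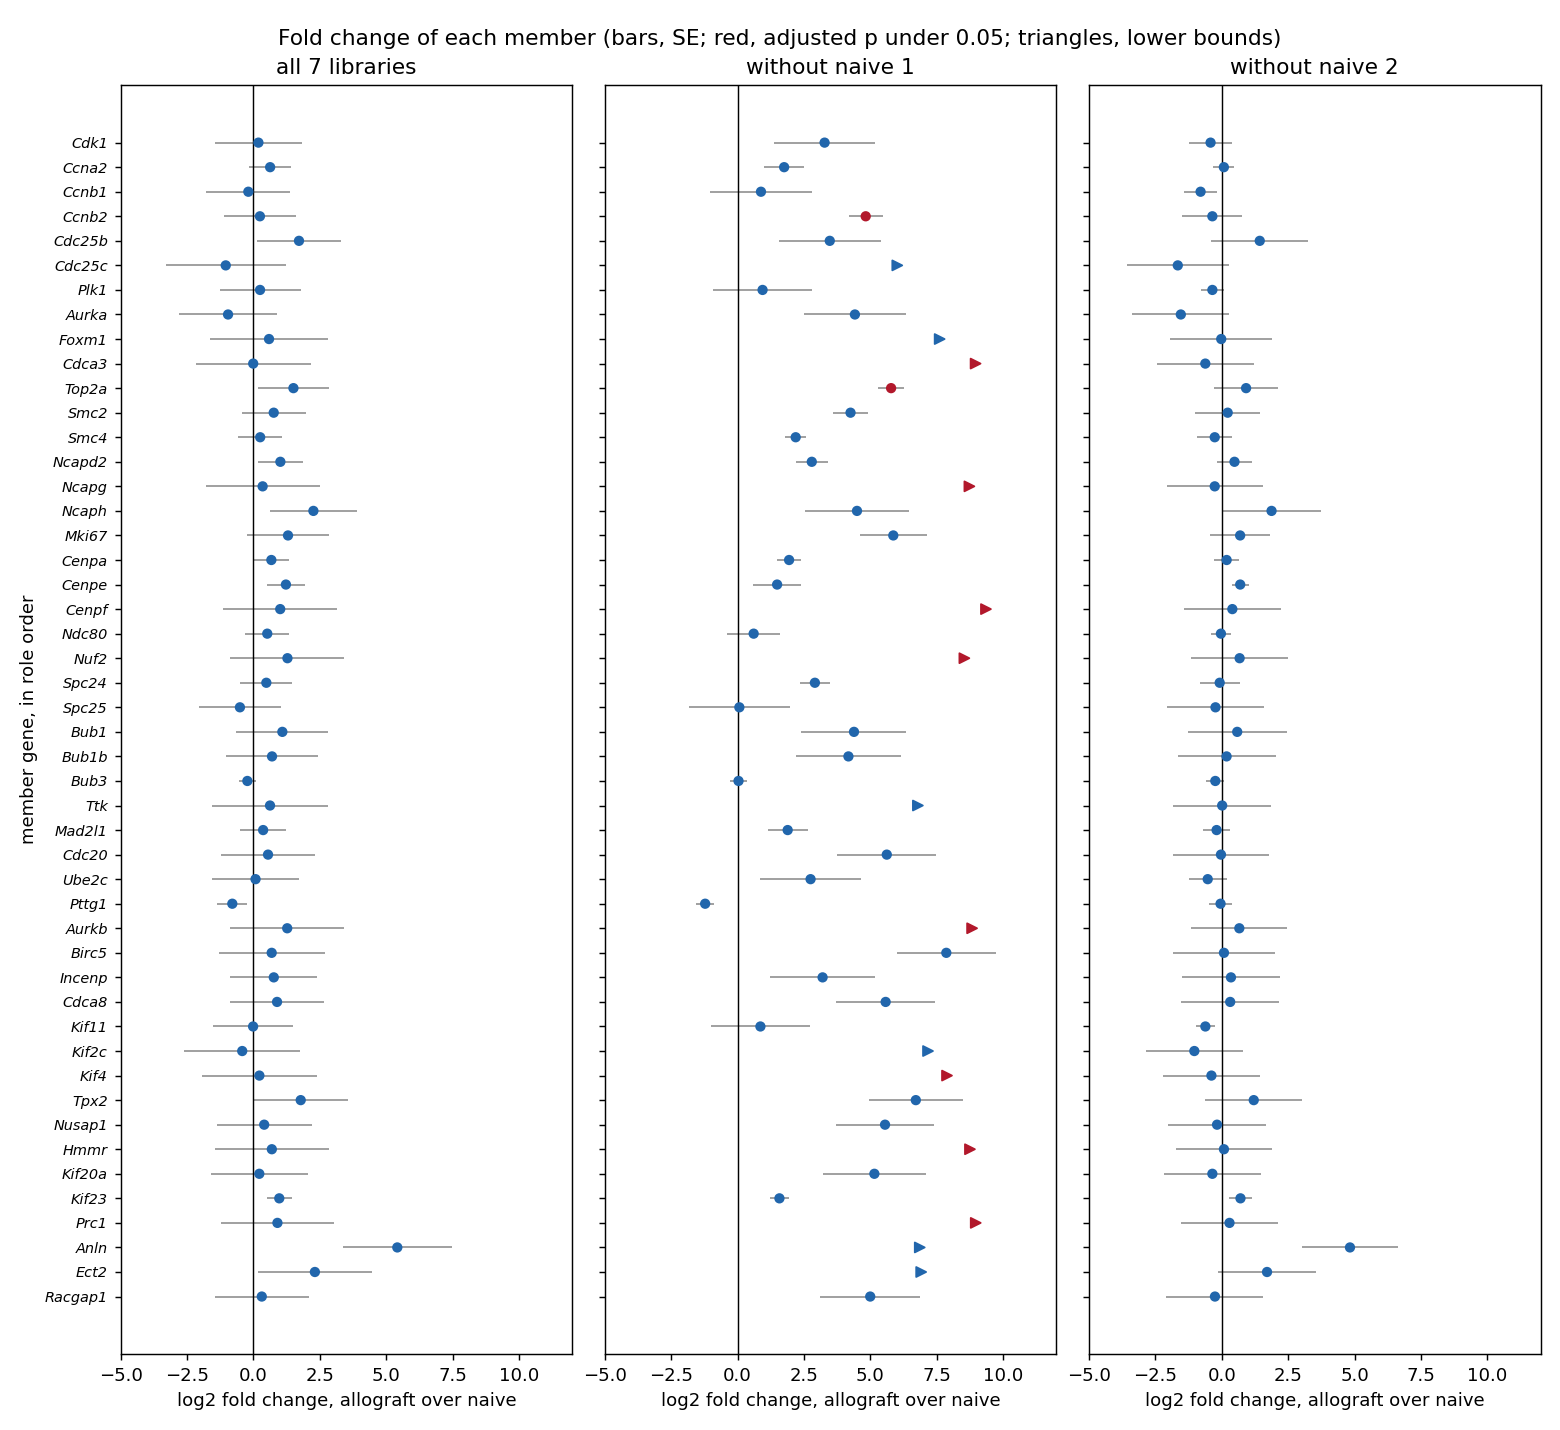
Log2 fold change of allograft over naive (horizontal axes) for each of the 48 genes (vertical axis) from edgeR with all 7 libraries, without naive 1 and without naive 2; bars are standard errors, red marks an adjusted p under 0.05, and triangles are lower bounds for genes at 0 in both remaining naive libraries. With all libraries the points lie around 0 with a median of 0.61, without naive 1 they move to a median of 4.66 with 10 in red, and without naive 2 to a median of -0.01.

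Position against the allografts was also read library by library. Naive 1 lay above all 4 allografts for 32 of the 48 genes (27.0% of all tested genes), within their range for 9 and below it for 7. The 7 were Cdc25b, Ncaph, Cenpe, Ndc80, Pttg1, Anln and Ect2. The ratio of naive 1 to the allograft mean had a median of 1.71 and ran from 0.0684 for Anln to 6.24 for Cdc25c. Naive 2 lay below all 4 allografts for 46 genes (51.9% of all tested genes) and naive 3 for 43 (48.6%), with 42 below in both (28.5%). Naive 2 was above all allografts for Pttg1 and Spc25, and naive 3 for Pttg1 alone. Naive 3 was within the allograft range for Ccnb1, Plk1, Ndc80 and Kif11. For 28 of the 48 genes naive 1 was above and naive 2 and 3 below all allografts, an order that 8.23% of all tested genes showed. All 4 allografts exceeded all 3 naive libraries for 5 genes, Cdc25b, Ncaph, Cenpe, Anln and Ect2, beside 12.5% of all tested genes. None of the 48 had all allografts below all naive libraries, against 2.15% of all tested genes.

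Of the 10 genes of mitotic entry, 6 had a fold change above 0 and 4 below, with a median of 0.22. Cdk1, the kinase that drives entry, had 143 CPM in naive 1, 0 in naive 2 and 11.5 in naive 3, and 73.3, 45.7, 50.2 and 64.2 CPM in the allografts. Naive 1 was the highest library and naive 2 and 3 were the lowest, and the log2 fold change was 0.19 (SE 1.64, edgeR adjusted p = 0.992). Ccnb2, a cyclin that binds Cdk1, had 226, 1.12 and 4.57 CPM in naive 1 to 3 and 113, 79.8, 101 and 69.8 CPM in the allografts. As for Cdk1, naive 1 was above and naive 2 and 3 below every allograft (log2 fold change 0.25, SE 1.37, edgeR adjusted p = 0.984). Ccnb2 was one of the genes that rose without naive 1, by 4.82 (edgeR adjusted p = 0.0472). Without naive 2 its fold change was -0.36 (edgeR adjusted p = 0.910). Ccna2, cyclin A2, which acts from S phase to early mitosis, had 95.6, 3.49 and 35.1 CPM in naive and 72.8, 75.9, 62.8 and 70.5 CPM in allograft libraries. Naive 1 was again above and the other naive libraries below all allografts, with a log2 fold change of 0.63 (SE 0.78, edgeR adjusted p = 0.873).

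The phosphatases that switch Cdk1 on took different orders. Cdc25b had 43.1, 7.23 and 0 CPM in naive 1 to 3 and 56.3, 60.6, 65.5 and 52.3 CPM in the allografts. The groups did not overlap, and the log2 fold change of 1.72 had an SE of 1.57 (edgeR adjusted p = 0.813). Cdc25c had 27.7, 0 and 0 CPM in naive and 3.32, 1.14, 8.30 and 5.02 CPM in allograft libraries. Naive 1 held the highest value and the groups overlapped, with the lowest fold change of the 48 at -1.04 (SE 2.26, edgeR adjusted p = 0.944). The other 5 genes of this group were the cyclin gene Ccnb1, the kinases Plk1 and Aurka, the transcription factor Foxm1 and Cdca3, which promotes the loss of an inhibitor of mitotic entry. Their allograft means were 11.4 to 34.3 CPM, naive 1 exceeded all allografts for each of them, and their fold changes ran from -0.95 for Aurka to 0.59 for Foxm1. Ccnb1 and Plk1 were at 0 in naive 2 but at 19.5 and 13.6 CPM in naive 3, within the allograft ranges of 6.67 to 27.8 and 12.6 to 15.9 CPM.

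All 7 genes of chromosome structure, with the proliferation marker Mki67, had fold changes above 0, with a median of 1.02. Top2a, the topoisomerase that untangles sister DNA, had 256, 2.70 and 4.86 CPM in naive 1 to 3 and 172, 309, 217 and 300 CPM in the allografts. Naive 1 lay within the allograft range and naive 2 and 3 far below it. The log2 fold change was 1.51 (SE 1.35, edgeR adjusted p = 0.803), and 5.78 without naive 1 (adjusted p = 0.0207). Mki67, which encodes the Ki-67 protein that coats mitotic chromosomes, had 272, 0.308 and 7.04 CPM in naive and 165, 275, 193 and 281 CPM in allograft libraries. Its order was close to that of Top2a, with a log2 fold change of 1.30 (SE 1.56, edgeR adjusted p = 0.868). Without naive 1 the fold change of Mki67 was 5.86 (edgeR adjusted p = 0.0974). Without naive 2 the fold changes were 0.91 for Top2a and 0.69 for Mki67 (edgeR adjusted p = 0.748 and 0.802).

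Condensin, the ring complex that compacts chromosomes, was covered by 5 of these genes. Smc4, an ATPase subunit of the ring, had 411, 20.3 and 54.2 CPM in naive 1 to 3 and 165, 198, 214 and 210 CPM in the allografts. Naive 1 was above every allograft and naive 2 and 3 below, and the log2 fold change was 0.26 (SE 0.82, edgeR adjusted p = 0.967). Ncaph, the subunit that closes the ring, had 13.7, 1.54 and 0 CPM in naive and 38.9, 17.9, 21.1 and 23.4 CPM in allograft libraries. Here naive 1 was below all allografts and the groups did not overlap, with a log2 fold change of 2.26 (SE 1.64, edgeR adjusted p = 0.744). Smc2, Ncapd2 and Ncapg, 3 other condensin subunits, had fold changes of 0.77, 1.02 and 0.35. Subunits of 1 complex thus took different places in naive 1: Smc4, Smc2 and Ncapg were above all allografts there, Ncapd2 within their range and Ncaph below.

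Of the 7 genes of the centromere and kinetochore, 6 had fold changes above 0, with a median of 0.68. Cenpa, the histone variant that marks the centromere, had 130, 9.23 and 34.4 CPM in naive 1 to 3 and 93.5, 98.6, 96.0 and 91.8 CPM in the allografts. It varied least of all 48 genes among the allografts, and its log2 fold change was 0.68 (SE 0.68, edgeR adjusted p = 0.832). Cenpe, a kinesin that moves chromosomes to the spindle equator, had 33.2, 2.44 and 35.9 CPM in naive and 40.5, 73.7, 60.7 and 56.1 CPM in allograft libraries. Naive 1 and 3 were close to each other and just below the lowest allograft, unlike the order of most of the 48 genes, and the log2 fold change was 1.23 (SE 0.72, edgeR adjusted p = 0.676).

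The Ndc80 complex, which grips spindle microtubules, is made by Ndc80, Nuf2, Spc24 and Spc25. Spc24 had 116, 2.70 and 11.8 CPM in naive 1 to 3 and 71.1, 53.3, 64.1 and 57.2 CPM in the allografts. Spc25 had 109, 61.2 and 0 CPM in naive and 55.3, 40.5, 49.7 and 41.9 CPM in allograft libraries. These binding partners had log2 fold changes of 0.49 (SE 0.98, edgeR adjusted p = 0.938) and -0.51 (SE 1.56, edgeR adjusted p = 0.966), and Spc25 was above all allografts in naive 2, where Spc24 was near 0. Ndc80 was at 1.27 CPM in naive 2 and 34.0 CPM in naive 3, and Nuf2 was at 0 in both. The 4 partners were thus present in 3 different combinations in the 3 naive libraries: all 4 in naive 1, all but Nuf2 in naive 2, and Ndc80 and Spc24 alone in naive 3. In each allograft all 4 were between 16.7 and 71.1 CPM. Cenpf, a large protein of the outer kinetochore, was at 0 in naive 2 and 3, at 67.4 CPM in naive 1 and between 32.6 and 67.8 CPM in the allografts.

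Of the 8 genes of the spindle checkpoint and anaphase, 6 had fold changes above 0, with a median of 0.46. Pttg1, securin, which holds the enzyme separase inactive until anaphase, had 54.7, 241 and 171 CPM in naive 1 to 3 and 109, 123, 117 and 107 CPM in the allografts. Its order was the reverse of that of most of the genes: naive 1 was lowest and naive 2 highest, and the allografts lay between them. The log2 fold change was -0.79 (SE 0.56, edgeR adjusted p = 0.737), -1.22 without naive 1 (adjusted p = 0.138) and -0.05 without naive 2. Bub3 had 147, 74.6 and 72.5 CPM in naive and 109, 91.6, 104 and 74.7 CPM in allograft libraries. It had the smallest SE of the 48 genes, with a log2 fold change of -0.23 (SE 0.32, edgeR adjusted p = 0.899), and naive 2 and 3 were close to allograft 4.

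The checkpoint genes that Bub3 works with were lower than Bub3 in naive 2 and 3 relative to the allografts. Mad2l1, the checkpoint protein MAD2 that binds Cdc20, had 167, 4.57 and 41.7 CPM in naive 1 to 3 and 109, 85.8, 104 and 73.2 CPM in the allografts. Naive 1 was highest and naive 2 lowest, and the log2 fold change was 0.37 (SE 0.86, edgeR adjusted p = 0.948). The kinase genes Bub1 and Bub1b, the direct partners of Bub3, were at 0.769 and 0.945 CPM in naive 2 and at 0 in naive 3, where Bub3 was above 72 CPM. Ttk, a further checkpoint kinase, was at 0 in both. Cdc20, which activates the anaphase-promoting complex, was at 0.923 CPM in naive 2, 0 in naive 3 and 25.5 to 43.2 CPM in the allografts. Ube2c, the enzyme that supplies ubiquitin to that complex, was at 170, 0 and 18.8 CPM in naive 1 to 3 and 58.8 to 72.5 CPM in the allografts. The fold changes of these 5 genes ran from 0.08 for Ube2c to 1.09 for Bub1.

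All 4 genes of the chromosomal passenger complex, the kinase complex that corrects faulty attachments and later acts in cytokinesis, were at 0 in naive 3. The complex summed to 521 CPM in naive 1, 6.66 in naive 2, 0 in naive 3 and 304 CPM ± 38.3 (SD, n = 4) in the allografts. Birc5, survivin, had 332, 1.06 and 0 CPM in naive 1 to 3 and 196, 142, 171 and 201 CPM in the allografts. Cdca8, borealin, had 113, 2.04 and 0 CPM in naive and 79.7, 62.1, 70.4 and 71.9 CPM in allograft libraries. Aurkb, the kinase of the complex, had 39.2, 0 and 0 CPM in naive and 29.4, 30.5, 37.1 and 28.2 CPM in allograft libraries. For all 3, naive 1 was above and naive 2 and 3 below every allograft. Their log2 fold changes were 0.69 for Birc5 (SE 1.99), 0.89 for Cdca8 (SE 1.77) and 1.27 for Aurkb (SE 2.14), with edgeR adjusted p-values of 0.964, 0.938 and 0.923. Incenp, the scaffold, differed in that naive 1, at 37.2 CPM, was within the allograft range of 16.7 to 38.0 CPM. Without naive 1, Aurkb was at least 455-fold higher in the allografts, counted against the floor of 3 counts per library (edgeR adjusted p = 0.0207). Without naive 2 its log2 fold change was 0.66 (edgeR adjusted p = 0.895).

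Of the 6 genes of spindle assembly, 4 had fold changes above 0 and 2 below, with a median of 0.32. Nusap1, which bundles microtubules near chromosomes, had 131, 1.71 and 0 CPM in naive 1 to 3 and 70.1, 55.5, 50.5 and 58.3 CPM in the allografts. Naive 1 was highest and naive 2 and 3 lowest (log2 fold change 0.41, SE 1.79, edgeR adjusted p = 0.978). Kif11, the kinesin that pushes the spindle poles apart, had 64.1, 0 and 34.8 CPM in naive and 35.3, 23.6, 36.3 and 36.8 CPM in allograft libraries. Naive 3 lay within the allograft range and naive 2 had no count, and the log2 fold change was -0.01 (SE 1.51, edgeR adjusted p = 0.999). Tpx2, the activator of the Aurka kinase on the spindle, had 31.7, 0.484 and 0 CPM in naive and 45.7, 31.4, 42.9 and 27.5 CPM in allograft libraries. Naive 1 lay within the allograft range, and the log2 fold change was 1.78 (SE 1.79, edgeR adjusted p = 0.833). Kif2c, a kinesin that takes microtubules apart, the chromosome kinesin Kif4 and Hmmr, a spindle protein that binds Tpx2, were all at 0 in naive 2 and 3 and at 40.2, 42.1 and 55.4 CPM in naive 1, above all allografts.

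All 6 genes of the spindle midzone and cytokinesis had fold changes above 0, with a median of 0.94. Anln, anillin, the scaffold of the contractile ring, had 0.547, 0 and 0 CPM in naive 1 to 3 and 7.54, 7.90, 11.4 and 5.15 CPM in the allografts. These values rest on 29 counts in naive 1 and 150 to 464 counts in each allograft. Every allograft was above every naive library, at 7.99 CPM ± 2.56 (SD, n = 4), and Anln was the only gene of the 48 with fewer than 100 counts in naive 1. Its log2 fold change of 5.42 (SE 2.06) had the smallest p of the 48 genes, at 0.0317 unadjusted and 0.397 adjusted in edgeR. The fold change was 4.83 without naive 2 (edgeR adjusted p = 0.225). Without naive 1 it was at least 116-fold higher in the allografts against the floor of 3 counts per library, with an edgeR adjusted p of 0.0553.

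Racgap1 and Kif23 form the centralspindlin complex, which bundles the midzone and sets the cleavage plane. Racgap1 had 130, 2.35 and 0 CPM in naive 1 to 3 and 59.4, 55.6, 61.4 and 42.6 CPM in the allografts. Kif23 had 33.4, 8.29 and 13.4 CPM in naive and 40.8, 40.4, 42.8 and 32.2 CPM in allograft libraries. The partners differed in naive 1, where Racgap1 was above all allografts and Kif23 within their range, and in naive 3, where Racgap1 had no count. Their log2 fold changes were 0.32 (SE 1.76, edgeR adjusted p = 0.984) and 0.98 (SE 0.46, edgeR adjusted p = 0.556). Prc1, which crosslinks midzone microtubules, had 55.6, 0 and 0 CPM in naive and 24.6, 37.7, 38.7 and 36.7 CPM in allograft libraries. Naive 1 was highest, with a log2 fold change of 0.91 (SE 2.14, edgeR adjusted p = 0.949). Ect2, the exchange factor that activates RhoA for the contractile ring, was at 5.01 CPM in naive 1, at 0 in naive 2 and 3 and at 5.52 to 10.4 CPM in the allografts. Kif20a, a midzone kinesin, was at 26.1, 0.396 and 0 CPM in naive 1 to 3 and at 7.68 to 16.6 CPM in the allografts.

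Of the 10 genes that rose without naive 1, 8 were at 0 in both naive 2 and naive 3, so their folds are lower bounds against 3 counts per library. Cenpf was at least 653-fold higher in the allografts, Prc1 at least 500.4-fold, Cdca3 at least 499-fold, Hmmr at least 430.2-fold, Ncapg at least 424-fold, Nuf2 at least 372-fold and Kif4 at least 236-fold, beside Aurkb above. The remaining 2 genes, Ccnb2 and Top2a, had counts in both libraries. The other 6 genes at 0 in both naive libraries did not pass: Foxm1 (at least 195-fold), Kif2c (144-fold), Ect2 (120.4-fold), Anln (116-fold), Ttk (111-fold) and Cdc25c (64.6-fold). These bounds compare the allografts with 2 naive libraries, 1 of which is the library rich in kidney tubule transcripts.

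Levels between genes were compared per length, as FPKM in the allografts. The highest were Ccnb2 at 51.6 FPKM ± 11.1, Pttg1 at 49.5 ± 3.32 and Birc5 at 45.2 ± 6.77 (SD, n = 4), which did not differ from one another beyond their spread. The next, Smc4, was lower than these beyond its spread. Top2a had a lower mean than Smc4, but their allograft values overlapped (16.4 to 29.8 FPKM for Top2a, 27.3 to 35.8 FPKM for Smc4). Smc4 was at 32.8 FPKM ± 3.82, followed by Top2a at 24.0 ± 6.44, Smc2 at 23.0 ± 4.60, Ube2c at 22.1 ± 1.83, Spc24 at 20.7 ± 2.58 and Mki67 at 19.6 ± 5.04. From Smc4 on, neighbours in this order did not differ beyond their spread. Cdc20 at 15.3 FPKM to Ttk at 1.33 FPKM came between. The lowest were Ect2 at 1.32 FPKM ± 0.366, Cdc25c at 0.775 ± 0.534 and Anln at 0.758 ± 0.248. The genes with the least transcript thus included Anln, the gene with the largest fold change, and Cdc25c, the gene with the smallest.

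The 4 allografts were close to one another for most of the genes. The coefficient of variation over the allografts had a median of 21.8% over the 48 genes, beside 21.6% over the 10592 tested genes of at least their lowest allograft mean. It ran from 3.12% for Cenpa to 68.0% for Cdc25c. The ratio of the highest to the lowest allograft had a median of 1.59 and reached 7.42 for Foxm1, which was at 2.92 CPM in allograft 4 and 12.1 to 21.7 CPM in the other 3. No allograft was high or low throughout: allograft 1 held the highest value for 17 genes, allograft 2 for 10, allograft 3 for 16 and allograft 4 for 5. Allograft 2 and 4, the libraries with the lower total counts, both exceeded allograft 1 and 3 for Mki67, Ncapd2, Top2a, Plk1 and Cenpf (5 of 48 genes, beside 20.4% of the 10592). They were both lower for 13 of the 48, beside 22.9%. Across the 48 genes the log2 ratio of these pairs of libraries had a Spearman correlation of 0.269 with the CPM to FPKM ratio, a measure of transcript length, and 0.221 over the 10592 genes, which share the same 4 libraries. The part of library depth or RNA quality in these differences was not tested.

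**Figure D5:**
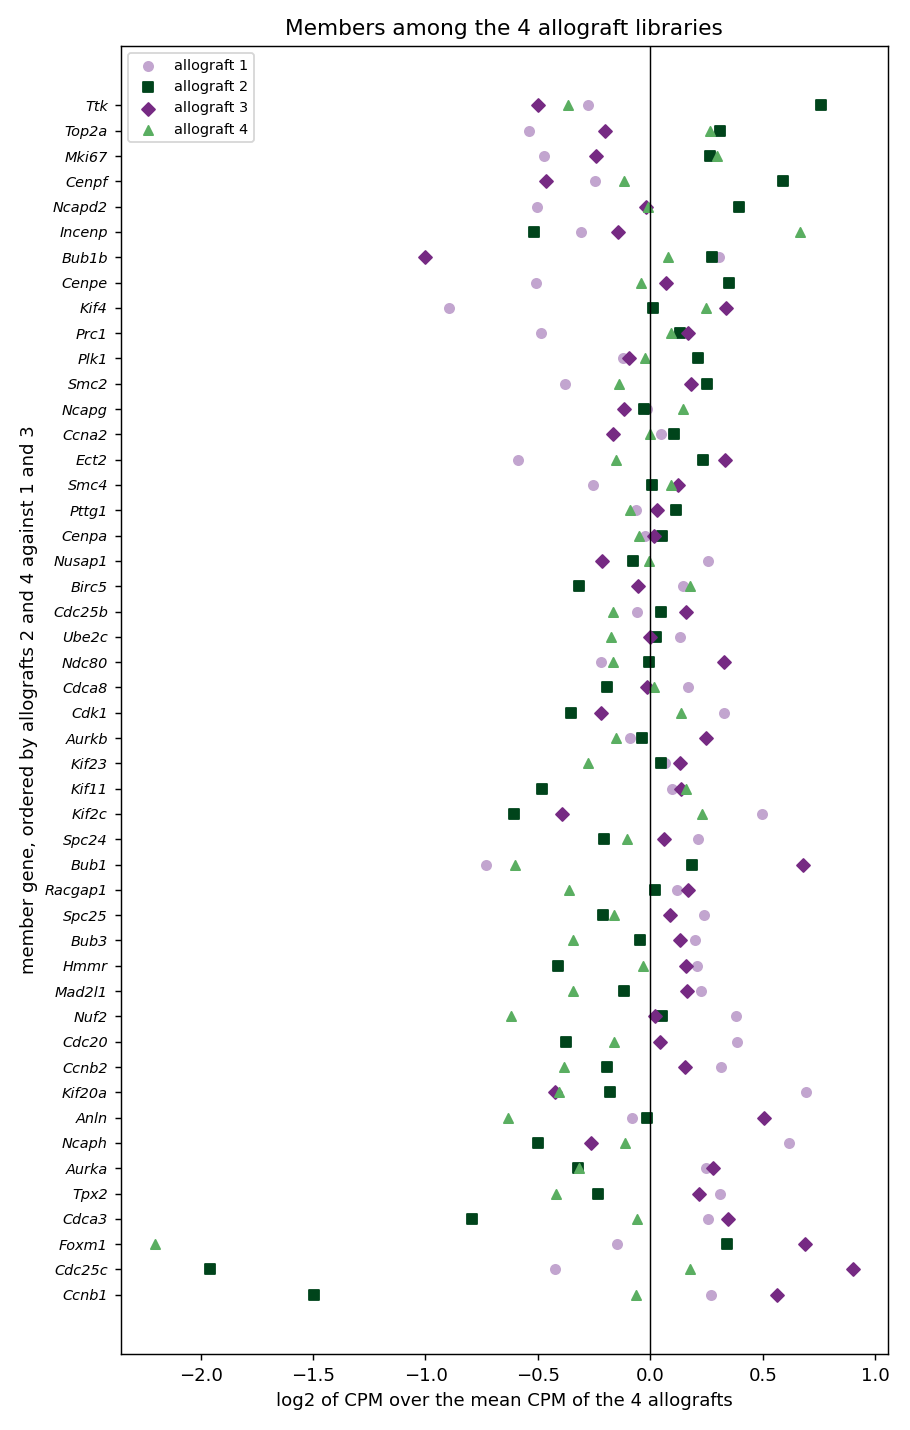
Log2 of the CPM of each allograft over the mean of the 4 allografts (horizontal axis) for each of the 48 genes (vertical axis), ordered from genes higher to genes lower in allograft 2 and 4. Most points lie within 0.5 of 0, and the 3 farthest are Foxm1 in allograft 4 and Cdc25c and Ccnb1 in allograft 2.

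Lists of related genes were set beside the 48. Of 66 other mitosis genes, 65 were tested. None passed in edgeR (0.0353% of all genes), and DESeq2 called 1 (4.35% of the genes with any count). In edgeR 2 had an unadjusted p under 0.05 (10.3% of all genes). Of the fold changes, 49 were above 0 (49.4% of all genes) and 16 below, and the median was 0.42. Their sums were 5118, 371 and 1694 CPM in naive 1 to 3 with an allograft mean of 3644 CPM ± 263 (SD, n = 4), so that naive 1 was above and naive 2 and 3 below the allografts, as for the 48 genes. Hmgb2 alone held 2105 CPM of the sum in naive 1, 734 CPM in naive 3 and 1698 to 2215 CPM in the allografts. Naive 1 was thus within the allograft range for Hmgb2. Without Hmgb2 the sums were 3013 CPM in naive 1, 960 CPM in naive 3 and 1661 to 1793 CPM in the allografts. In naive 2 the top gene was Zwint, at 97.7 CPM. Kif14, a cytokinesis kinesin, had 0.320 CPM in naive 1, 0 in naive 2 and 3 and 4.43, 5.49, 7.64 and 2.34 CPM in the allografts (log2 fold change 5.48, SE 2.04, edgeR adjusted p = 0.383). This low abundance gene of cytokinesis had the same order as Anln. Iqgap3, a scaffold protein of dividing cells, had 0.0754 CPM in naive 1, 0 in naive 2 and 3 and 3.95, 3.70, 0 and 2.37 CPM in the allografts (log2 fold change 6.40, SE 2.54, edgeR adjusted p = 0.431). Without naive 1, 14 of the 66 rose (0.510% of all genes were called higher) and the median was 4.11, and without naive 2 the median was -0.05.

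The 36 genes of DNA replication and the G1/S step were likewise highest in naive 1 and lowest in naive 2 and 3. Their sums were 4384, 321 and 671 CPM in naive 1 to 3 with an allograft mean of 2571 CPM ± 226 (SD, n = 4). None passed in edgeR (0.0353% of all genes; DESeq2 called none), 1 had an unadjusted p under 0.05 (10.3% of all genes), 30 had fold changes above 0 (49.4% of all genes) and 6 below, and the median was 0.58. Without naive 1, 2 of the 36 rose (0.510% of all genes were called higher) and the median was 2.99. At 0 were 2 of the 36 genes in naive 2 and 15 in naive 3, beside 19 and 28 of the 48 mitotic genes. E2f1, an activator of replication genes, had 14.9, 1.30 and 1.24 CPM in naive and 35.5, 20.7, 27.6 and 34.4 CPM in allograft libraries, without overlap (log2 fold change 2.30, SE 0.94, edgeR adjusted p = 0.455). Mcm4, a subunit of the replicative helicase, had 93.5, 6.26 and 16.3 CPM in naive and 90.9, 86.8, 116 and 72.2 CPM in allograft libraries (log2 fold change 1.20, SE 0.76, edgeR adjusted p = 0.708).

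A list of 15 genes held subunits of the anaphase-promoting complex and its activator Fzr1. This complex is the ubiquitin ligase that ends mitosis and is also made by resting cells. The 15 genes did not show the placement of the G1/S genes. They summed to 851, 592 and 845 CPM in naive 1 to 3 with an allograft mean of 800 CPM ± 29.8 (SD, n = 4), and 0, 0 and 1 of them were at 0 in naive 1 to 3. None passed in edgeR (0.0353% of all genes), and DESeq2 called none. In edgeR 2 had an unadjusted p under 0.05 (10.3% of all genes). Of the fold changes, 6 were above 0 (49.4% of all genes) and 9 below, and the median was -0.03. The count above 0 was 3 with DESeq2 size factors and 10 with total counts, so no direction is given for this list. Cdc27 had 35.2, 13.8 and 27.6 CPM in naive and 40.8, 67.1, 60.4 and 59.4 CPM in allograft libraries (log2 fold change 1.02, SE 0.35, edgeR adjusted p = 0.341). Cdc16 had 87.7, 51.0 and 55.7 CPM in naive and 36.4, 44.6, 55.1 and 31.9 CPM in allograft libraries (log2 fold change -0.81, SE 0.32, edgeR adjusted p = 0.428). The groups did not overlap for Cdc27 and overlapped for Cdc16, where naive 2 was below allograft 3.

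The 16 regulators of mitotic transcription included NF-Y subunits and members of the complexes that bind the CHR. None of them passed in edgeR (0.0353% of all genes), and DESeq2 called 1 (4.35% of the genes with any count). In edgeR none had an unadjusted p under 0.05 (10.3% of all genes). Their fold changes were above 0 for 10 (49.4% of all genes) and below 0 for 6, with a median of 0.35. They summed to 774, 255 and 494 CPM in naive 1 to 3 with an allograft mean of 617 CPM ± 62.4 (SD, n = 4). Nfya, the NF-Y subunit that reads CCAAT, had 2.07, 0.879 and 1.90 CPM in naive and 4.38, 4.54, 5.51 and 4.81 CPM in allograft libraries, without overlap (log2 fold change 1.43, SE 0.83, edgeR adjusted p = 0.666). Nfyc, its partner, had 43.7, 39.0 and 29.8 CPM in naive and 33.0, 26.4, 24.0 and 15.3 CPM in allograft libraries (log2 fold change -0.84, SE 0.41, edgeR adjusted p = 0.574). The groups overlapped for Nfyc, with naive 3 below allograft 1.

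Markers of other cell types differed between the same libraries. T cell markers summed to 579, 51.3 and 1714 CPM in naive 1 to 3 and 1351 to 1566 CPM in the allografts, with Cd8a, Cd8b1 and Cd5 at 0 in all 3 naive libraries and in allograft 2, Cd8a and Cd5 at 0 in allograft 3, and Cd4 at 0 in naive 1 and 2 and in allograft 1, 2 and 3. B cell markers summed to 265, 30.5 and 249 CPM in naive and 323 to 490 CPM in allograft libraries, and 7, 3 and 9 of the 10 were at 0 in naive 1 to 3. Myeloid markers summed to 2.49, 333 and 476 CPM in naive and 212 to 338 CPM in allograft libraries, and 12, 2 and 9 of their 13 identifiers were at 0 in naive 1 to 3. Dendritic cell markers summed to 12.7, 30.4 and 31.8 CPM in naive and 88.7 to 112 CPM in allograft libraries, with 7, 2 and 6 of 8 at 0 in naive 1 to 3 and none in the allografts. Plasma cell markers summed to 97.9, 90.1 and 83.8 CPM in naive and 110 to 185 CPM in allograft libraries. The sums of the B cell, dendritic cell and plasma cell markers did not overlap between the groups. Erythroid markers were at 3006 CPM and endothelial markers at 617 CPM in naive 2, against 469 to 786 and 8.26 to 54.4 CPM in the other 6 libraries. Mast cell and basophil markers summed to 421, 25.3 and 312 CPM in naive and 228 to 272 CPM in allograft libraries. In naive 1, the library with the most mitotic transcript, all 10 cardiomyocyte markers and 6 of 8 fibroblast markers were at 0, and the fibroblast markers summed to 0.0566 CPM. Cardiomyocyte markers were scarce in every library, with 6 and 9 of the 10 at 0 in naive 2 and 3 and 7 to 9 in the allografts. Naive 1 also held the highest sum of mast cell and basophil markers. The part of other cells in the mitotic transcripts was not tested.

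By GENCODE M21, exons of 15 of the 48 genes overlap exons of another gene, and the use of strand in counting is not given in the sources used here, so reads of such pairs cannot be told apart if strand was not used. Overlaps on the opposite strand of 510 or more bases were Ccna2 with Exosc9, Kif4 with Pdzd11, Prc1 with Rccd1, Ncapg with Lcorl, Kif20a with Cdc23, Cdc25c with Gm3550 and Ube2c with Tnnc2. Pdzd11 was at 62.3 and 57.0 CPM and Lcorl at 15.0 and 61.2 CPM in naive 2 and 3, where Kif4 and Ncapg were at 0. Exosc9 was at 38.1 and 67.1 CPM in those libraries, where Ccna2 was at 3.49 and 35.1 CPM.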

How the data were processed

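RNA of sorted ILC2s was measured in 7 libraries, with small-scale RNA extraction and amplified full-length cDNA per the labels' protocols. The submitters' processing notes name FastQC 0.11.5, STAR 2.5.3a, StringTie 1.3.1c, DESeq2 1.16.1 and the build mm10; the counting tool, the annotation and any use of strand are not given in the sources used here. The authors deposited whole-number counts per gene, which were tested. They also deposited FPKM (counts scaled to gene length and depth), used here to compare levels between genes and as an alternative test. Each column matched 1 sample, and 0 were left over.

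CPM is the count scaled to a deposited library total of 1000000. The comparison used edgeR 4.0.16 (R 4.3.3) with TMM, filterByExpr, a quasi-likelihood fit over all 7 libraries with no covariate, and Benjamini-Hochberg adjustment over all 17015 genes at 0.05. It was also run on simulated counts with the same spread in all libraries. Those counts did not hold the differences seen between the naive libraries, so they cannot show how the test behaves on these. Fold changes are allograft over naive, with the SE implied by F. Alternatives were DESeq2 size factors, total counts, the DESeq2 1.42.0 Wald test, 2 other filters, limma 3.58.1 (voom with quality weights, and log2 of FPKM plus 0.1 or 1), the replicate number as a block, and leaving out each library.

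The 48 genes, the 4 related lists, the 12 marker lists and the tests were chosen with earlier results of these data known. Values per library are given in each role group for the 3 genes with the highest mean CPM and the gene with the smallest p, for any gene past the threshold and for the extreme fold changes, and in each related list for the 2 genes with the smallest p; other values printed were chosen after they were seen.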

Additional observations from a re-analysis of the deposited data

Results flagged for a closer look

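Among the 4 allografts, 53 values were checked for a library far from the other 3, and 4 were found, where chance gives about 1 in 20. Ttk was at 12.9 CPM in allograft 2 and at 5.38 to 6.27 CPM in the other 3. Kif11 was at 23.6 CPM in allograft 2 and at 35.3 to 36.8 CPM in the others. Kif20a was at 16.6 CPM in allograft 1 and at 7.68 to 9.10 CPM in the others. Prc1 was at 24.6 CPM in allograft 1 and at 36.7 to 38.7 CPM in the others. The naive group of 3 libraries was too small for this check.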

How the results depend on the processing

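The call on the 48 genes turned on naive 1. Leaving out 1 library at a time, the number of the 48 at an adjusted p under 0.05 ran from 0 to 10 (10 without naive 1 only), at an unadjusted p under 0.05 from 0 to 32, with a fold change above 0 from 24 to 47, and their median from -0.0060 to 4.66. For the other mitosis genes the numbers ran from 0 to 14 at an adjusted p under 0.05 and from 29 to 60 above 0, with medians from -0.045 to 4.11. The medians of the regulators ran from 0.15 to 1.60 and of the G1/S genes from 0.11 to 2.99, with 0 to 2 G1/S genes called. The log2 ratio of the summed level ran from 0.11 to 2.32. The fold change turned sign for 23 of the 48 in at least 1 of these fits (8 without naive 1, 15 without naive 2, 11 without naive 3, at most 3 without an allograft); among the genes given with values in every library, these ran from -0.43 to 3.28 for Cdk1, -0.36 to 4.82 for Ccnb2, -1.66 to 10.34 for Cdc25c, -0.27 to 2.19 for Smc4, -0.081 to 2.91 for Spc24, -1.08 to 0.066 for Spc25, -0.43 to 0.034 for Bub3, -0.20 to 1.88 for Mad2l1, -0.62 to 0.86 for Kif11, -0.18 to 5.55 for Nusap1 and -0.27 to 4.99 for Racgap1.

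DESeq2 called 1 of the 48, 1 other mitosis gene and 1 regulator. Of the anaphase-promoting complex, 3 were above 0 with DESeq2 size factors, 10 with total counts and 3 in DESeq2. Voom gave 0 of the 48 at an unadjusted p under 0.05, log2 of FPKM plus 0.1 gave 12 and plus 1 gave 9. Medians were 2.47 for the 48 and 2.60 for the other mitosis genes with voom, and 2.47, 2.18 and 2.22 for the 48, the other mitosis genes and the G1/S genes with FPKM plus 0.1. Signs turned for Cdc25c (voom 1.70, FPKM plus 0.1 1.00), Spc25 (voom 1.47, FPKM plus 0.1 1.75, plus 1 0.71) and Kif11 (total counts 0.0024, mean of 50 counts 0.012, voom 1.74, FPKM plus 0.1 1.39, plus 1 0.44). The cause was not tested.

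Deviations of same-numbered libraries from their group means had correlations of -0.0091, 0.0023 and 0.038. With naive libraries that differ this widely, these values cannot show whether the numbers pair the libraries. With the replicate block, and allograft 4 left out, 0 genes of the 48 had an unadjusted p under 0.05, the medians were 3.75 for the 48, 3.35 for the other mitosis and 2.23 for the G1/S genes, and Cdc25c, Spc25 and Kif11 were at 6.66, 0.50 and 1.18. Scaling by DESeq2 size factors moved the median of all genes to -0.20 and total counts to 0.17.

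At these depths 3 counts equal at most 0.103 CPM, below the lowest allograft value of any of the 48 genes (Cdc25c, 1.14 CPM in allograft 2).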
